A study of Coccomyxa subellipsoidea C-169 with 6 samples.

Results

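Coccomyxa subellipsoidea C-169 is a unicellular green alga, and 78 of its 9409 measured genes are described here because their transcripts were well detected at 0.04% CO2 and nearly lost at 2% CO2. They were chosen on the expression values themselves, as CPM, the share of a library's counts that fell on a gene times 1000000. A gene was taken when it reached 10 CPM or more in each of the 3 libraries at 0.04% CO2, when CG 2 and CG 3 each lay at or below 1/8 of the mean of those 3 libraries, and when CG 1 lay at or below 1/4 of it. The rule also left out 6 gene numbers by name, and 0 of these 6 met the thresholds. Since all 6 libraries chose the genes, their levels and folds are given as a description and carry no test.

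Strain C-169 was grown in flasks of Bold's Basal Medium under continuous light with shaking, after a pre-culture at ambient CO2. AG cultures received air with 0.04% CO2 and CG cultures received 2% CO2, and cells were taken on day 4, with 3 replicate cultures per group and 1 digital gene expression library per culture. No gene was deleted or added in either group, and the comparison covers 1 strain and 1 harvest day. CPM is a share of each library, so that less transcript of a gene per cell and more transcript of other genes cannot be told apart.

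Green algae meet low CO2 with a carbon concentrating mechanism, in which transporters and carbonic anhydrases raise CO2 around the carbon-fixing enzyme Rubisco, and with photorespiration, which recovers carbon after Rubisco has reacted with oxygen. In Chlamydomonas many genes of both processes are expressed in air and repressed at high CO2. The sources used here pair only few gene numbers of C-169 with names, so that most of the 78 genes are known by number and none of them could be placed in either process.

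The 6 libraries held 2674507 to 4969639 counts, with counts above 0 in 9067 to 9190 genes. Among the CG libraries, CG 1 stood apart for many genes, and several results are therefore also given without it.

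The 78 genes together took 3.31%, 3.32% and 3.42% of the counts in AG 1, AG 2 and AG 3. In CG 1, CG 2 and CG 3 they took 0.319%, 0.170% and 0.169%. A fall of their summed share in every CG library was set in advance by the limits of the rule. The share left in CG 1 was the largest of the 3, and the rule gave CG 1 the loosest limit. All 78 genes had every CG library below every AG library, as the limits of the rule make likely, and the same held for 26.2% of all 9409 genes. In edgeR's quasi-likelihood test across 8637 genes all 78 were called lower in CG, where 25.0% of the tested genes fell and 27.3% rose. Nothing is read from these counts, since the test uses the contrast that chose the genes.

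**Figure D1:**
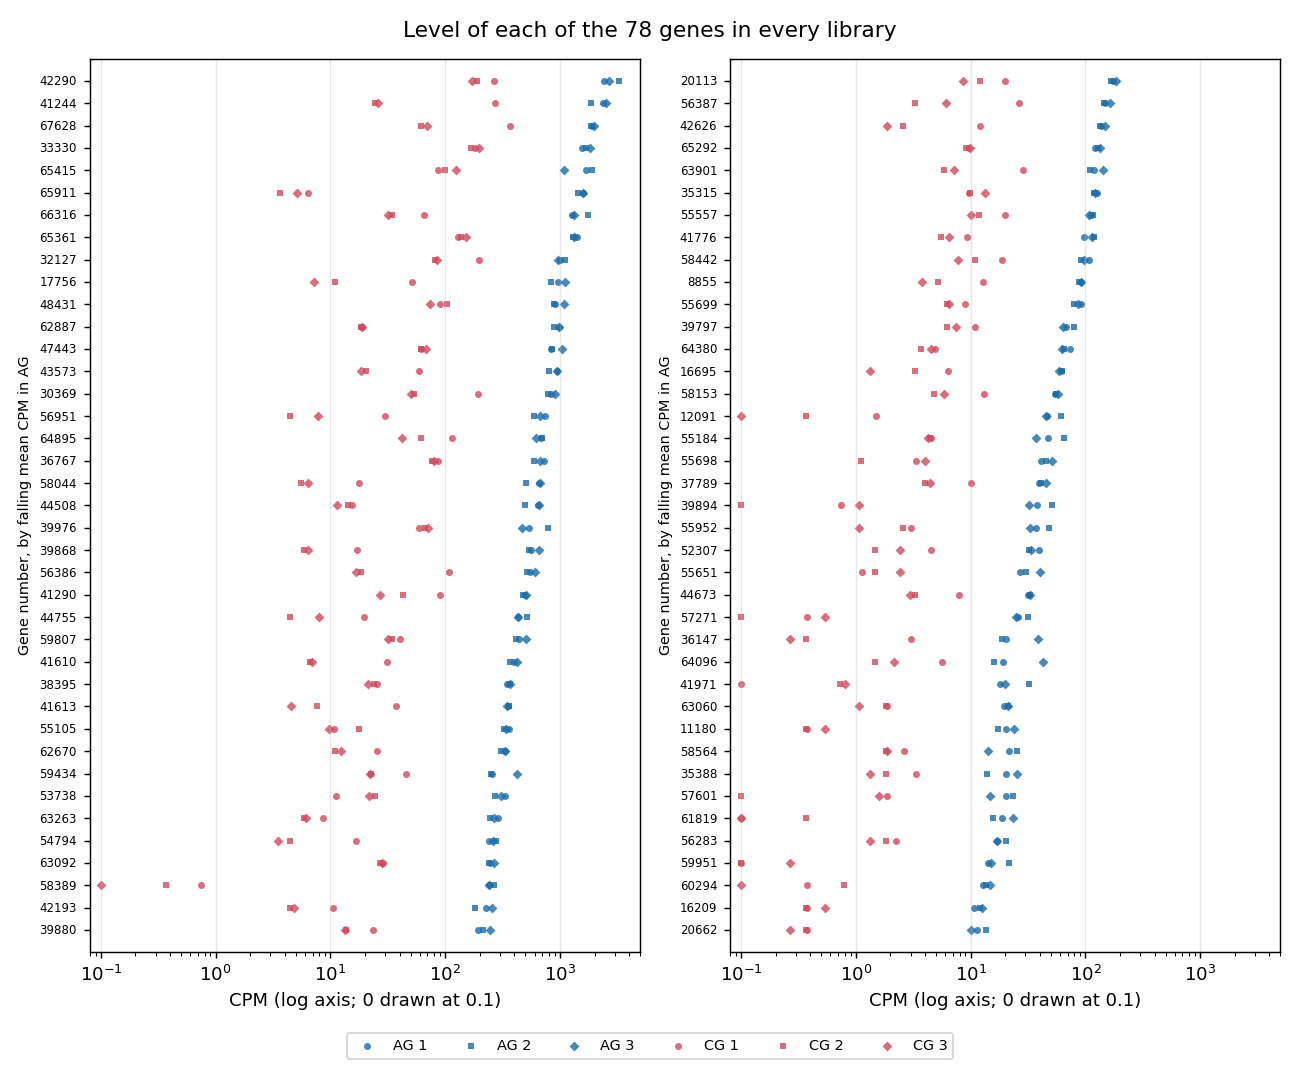
CPM (log axis, 0 drawn at 0.1) of each of the 78 genes in AG 1 to AG 3 (blue) and CG 1 to CG 3 (red), 1 line per gene, ordered by mean CPM in AG, with the higher-level genes in the left panel. The blue and red points of a gene never overlap, and the CG 1 circle lies to the right of the other red points in 57 genes.

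The mean of the 3 CG libraries was lower than that of the AG libraries by a median of 15.4-fold over the 78 genes, a median log2 ratio of -3.94. The folds ran from 6.79 in gene 37789 to 672 in gene 58389, which kept only 3 counts in CG, 2 of them in CG 1. They were under 10 in 20 genes, from 10 to under 20 in 28, from 20 to under 50 in 20, from 50 to under 100 in 6 and at least 100 in 4. The median fold differed little between classes of AG share, with values of 13.3 in the 9 genes with an AG mean of 1000 CPM or more, 15.4 in the 38 genes from 100 to under 1000 CPM and 16.3 in the 31 genes under 100 CPM. Without CG 1 the median fold was 18.7, and the fold of 24 genes moved by more than 1.5 times.

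A low share of the AG level is not the same as a low level. Levels of different genes were compared as RPKM, reads per kilobase of transcript model per 1000000 reads, which takes out transcript length. The median of the 78 genes was 213, 196 and 221 RPKM in AG 1 to AG 3, and 13.9, 6.98 and 6.94 RPKM in CG 1 to CG 3. The median over all genes stayed between 29.8 and 32.6 RPKM in the 6 libraries. Of the 78 genes, 66 lay above the median of all genes in AG and 19 still did so in CG, or 15 without CG 1. For these 19, the description as nearly switched off holds relative to their own level in AG and not relative to other genes.

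**Figure D2:**
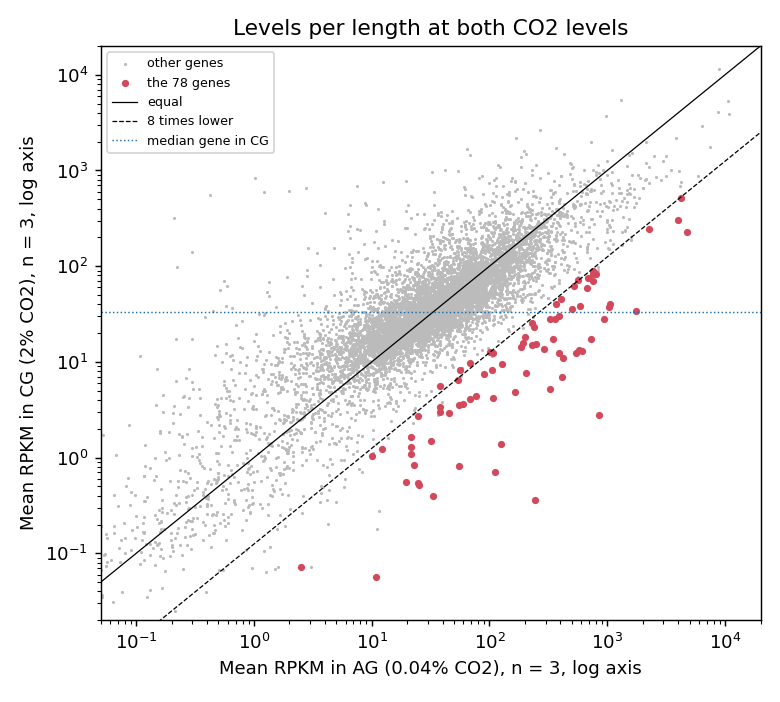
Mean RPKM in CG (2% CO2, n = 3) against mean RPKM in AG (0.04% CO2, n = 3) on log axes, with the 78 genes in red and all other genes in grey. The dashed line marks an 8-fold lower level and the dotted line the median of all genes in CG, above which 19 red points lie. Genes with a mean of 0 or beyond the lower axis limits are not drawn.

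Several of the 78 were among the most abundant transcripts of the alga at 0.04% CO2. By mean RPKM in AG, 7 of them stood among the first 94 genes, the top 1%, and 0 did so in CG. Gene 41244, with a short transcript model of 474 nt, ranked 8 in AG at 4718 ± 722 RPKM (SD, n = 3) and 530 in CG at 226 ± 299.9 RPKM. Gene 36767, with the shortest model of the list at 156 nt, ranked 9 in AG at 4262 ± 439 RPKM and 167 in CG at 518 ± 31.3 RPKM. Its ranks rest on division by so short a model and are uncertain, and its AG mean was 665 CPM. The large SD of gene 41244 in CG comes from CG 1, without which its mean was 53.3 RPKM and its rank 2893, whereas the 3 CG libraries lay close together for gene 36767.

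Gene 62887 fell further in this order of levels, from rank 34 at 1746 ± 109 RPKM to rank 4530 at 34.4 ± 0.576 RPKM. Gene 65911 went from rank 109 at 857 ± 46.4 RPKM to rank 8641 at 2.80 ± 0.747 RPKM. Both therefore left the group of abundant transcripts, and only gene 62887 stayed near the median of all genes. The ranks of the remaining genes in the top 1% fell from 13 to 351 for gene 42290, from 24 to 490 for gene 33330, from 80 to 3901 for gene 41610 and from 86 to 4150 for gene 43573. Without CG 1 the CG ranks of these genes were 446, 502, 6779 and 6054.

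Gene 42290 took the largest share of AG counts of the list. It was measured at 2397, 3250.1 and 2683 CPM in AG and at 266, 188 and 171 CPM in CG 1 to CG 3. The lowest AG library lay far above the highest CG library, and the mean went from 2777 ± 434 to 208 ± 50.4 CPM (SD, n = 3), 13.3-fold lower. Its counts were fractional in 3 libraries, and how the fractions arose is not stated in the sources used here, which describe counting of reads matched to a single gene, so that its level is uncertain.

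Gene 41244 was measured at 2362, 1849 and 2498 CPM in AG and at 271, 24.6 and 25.9 CPM in CG. Gene 67628 was at 1899, 1854 and 1994 CPM in AG and at 369, 61.5 and 68.8 CPM in CG, with fractional counts in 2 libraries. In both genes CG 1 kept several times the level of CG 2 and CG 3. The mean of gene 41244 was 20.8-fold lower in CG, 88.5-fold without CG 1, and that of gene 67628 was 11.5-fold lower, 29.4-fold without CG 1.

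Gene 33330 showed no such gap, with 1557, 1672 and 1820.1 CPM in AG and 181, 167 and 197 CPM in CG, 9.28-fold lower. Its counts were fractional in all 6 libraries, so that its level is uncertain too. Gene 65361, listed under the term membrane with no name, was at 1413, 1287 and 1332 CPM in AG and at 130.5, 136 and 151 CPM in CG. The CG libraries of gene 65361 were all far below its AG libraries, and its mean went from 1344 ± 63.7 to 139 ± 10.6 CPM, 9.65-fold lower. Gene 66316 was at 1265, 1736 and 1317 CPM in AG and at 65.4, 34.5 and 31.5 CPM in CG, 32.8-fold lower.

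Gene 32127 had 1004, 1115 and 962 CPM in AG and 198, 81.1 and 85.0 CPM in CG, 8.46-fold lower. Gene 17756 had 963, 843 and 1111 CPM in AG and 51.2, 11.01 and 7.22 CPM in CG. The drop of gene 17756 was 42.0-fold, and 107-fold without CG 1, which again held the highest of the CG values.

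Gene 65911 combined a high level in AG with almost no transcript in CG. It was measured at 1583, 1446 and 1597 CPM in AG and at 6.36, 3.67 and 5.08 CPM in CG. All 3 CG libraries were low, its 46 counts in CG stood against 19745 in AG, and the mean was 306-fold lower. Among the 9 genes at 1000 CPM or more in AG it was the only one with a fold above 100.

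The deepest relative drop was that of gene 58389, at 242, 266 and 241 CPM in AG and at 0.748, 0.367 and 0 CPM in CG. Pooled over libraries these were 3176 counts in AG and 3 in CG, a depth-corrected ratio of 758 with an exact Clopper-Pearson 95% interval of 259 to 3679. Without CG 1 a single count was left in CG, and the ratio was 1609 with an interval of 289 to 63574. CG 3 held no read of this gene, and each of the other CG libraries held only 1 or 2. This and the other intervals cover counting error only, since counts were pooled over cultures and the spread between cultures was left out. The reads carry no molecular identifiers, so that repeated reads of 1 molecule may make even the counting error too small. As the genes were picked on these same libraries, the intervals are a description.

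Gene 61819, with a model of 174 nt, was at 18.7, 15.7 and 23.3 CPM in AG, and its only count in CG came from CG 2. Its pooled ratio was 179 with an interval of 31.8 to 7100.1, from 250 counts against 1. Gene 59951 was at 14.1, 21.4 and 15.1 CPM in AG, with its only CG count in CG 3, and had a ratio of 153 with an interval of 27.1 to 6053. The width of both intervals leaves the size of these drops poorly known.

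Gene 57271 was at 26.0, 31.6 and 24.8 CPM in AG and at 0.374, 0 and 0.535 CPM in CG, a pooled ratio of 82.8 with an interval of 28.1 to 404. Gene 20662, near the floor of the rule, was at 11.3, 13.6 and 10.1 CPM in AG and at 0.374, 0.367 and 0.267 CPM in CG, with a ratio of 35.1 and an interval of 11.8 to 172. In total 5 genes kept 3 counts or fewer in CG, 12 kept 10 or fewer, and 9 had no count in at least 1 CG library. Zeros were spread over the libraries, with 3 in CG 1, 4 in CG 2 and 4 in CG 3.

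Other deep drops rested on more reads. Gene 58044 was at 655, 504 and 669 CPM in AG and at 17.6, 5.51 and 6.42 CPM in CG, 62.0-fold lower. Gene 39868 was at 562, 541 and 662 CPM in AG and at 17.2, 5.87 and 6.42 CPM in CG, 59.8-fold lower. In both genes CG 1 was the highest CG library, and without it their folds were 102 and 95.7.

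Gene 62887 had 982, 879 and 982 CPM in AG and 18.7, 18.4 and 19.0 CPM in CG. Its CG libraries differed least of all genes named here, and its mean went from 948 ± 59.4 to 18.7 ± 0.313 CPM, 50.8-fold lower with and without CG 1. Another 2 genes completed the 10 largest drops. Gene 12091 was at 46.4, 60.9 and 45.5 CPM in AG and at 1.496, 0.367 and 0 CPM in CG, with 643 counts against 5. Gene 39894 was at 37.8, 50.7 and 32.4 CPM in AG and at 0.748, 0 and 1.07 CPM in CG, with 505 counts against 6. Their mean folds of 82.0 and 66.6 rest on those few CG counts, and 4 of the 5 counts of gene 12091 were in CG 1. Without CG 1 its pooled ratio was 326 with an interval of 58.3 to 12887.

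The study's sheet of enriched terms, of which part was held here, gave entries to 219 genes of the table, 5 of the 78 among them and 3 of these with a name. Gene 65415 is named there as a cytochrome P450 superfamily protein, a family of haem enzymes that insert oxygen into many substrates. It was measured at 1699.6, 1884 and 1080.4 CPM in AG and at 86.2, 99.7 and 123 CPM in CG. Its counts were fractional in 3 libraries, so that its level is uncertain. The AG libraries were uneven, with AG 3 lowest, and the CG libraries were all far below them. The mean went from 1555 ± 421 to 103 ± 18.6 CPM, 15.1-fold lower, and CG 1 was here the lowest and not the highest CG library.

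The part of the sheet held here had 3 other genes with P450 names, chosen after their values were seen. Gene 65414, whose number is next to that of gene 65415 but which does not lie beside it in the annotation, was at 570.0, 614 and 505 CPM in AG and at 168, 237 and 294 CPM in CG. It fell by a log2 fold change of -1.36 (SE 0.22, adjusted p = 0.00192 in edgeR's quasi-likelihood test with Benjamini-Hochberg adjustment). Gene 49034 fell by -1.85 (SE 0.42, edgeR adjusted p = 0.00905), or -2.52 without CG 1, and gene 52294 rose by 1.42 (SE 0.23, edgeR adjusted p = 0.00216). These genes with P450 names thus moved in both directions, and gene 65415 was the only one of the 4 that met the thresholds of the rule. The sheet holds only genes that the study had called changed, so P450 genes it left out were not looked at.

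Gene 11180 is named as PS II oxygen-evolving complex 1, a protein that stabilises the manganese cluster where photosystem II splits water. It was at 20.4, 17.3 and 23.7 CPM in AG and at 0.374, 0.367 and 0.535 CPM in CG. The 3 CG libraries held 4 counts between them against 265 in AG, and the mean went from 20.5 ± 3.25 to 0.425 ± 0.0948 CPM, 48.2-fold lower. At 25.2 RPKM in AG it stayed below the median of all genes even at 0.04% CO2.

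Gene 30990, named photosystem II subunit O-2, carries the name of the same kind of protein. It was at 3973, 3919 and 4119 CPM in AG and at 2562, 1526 and 1306 CPM in CG, all CG libraries below all AG libraries. It fell by a log2 fold change of -1.24 (SE 0.29, edgeR adjusted p = 0.00941), or -1.60 without CG 1. Its mean level was 3172 RPKM in AG and 1425 RPKM in CG, so the abundant gene of this name stayed among the high transcripts while gene 11180 was nearly lost.

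Gene 21127, named photosystem II reaction center protein B, was at 15.4, 8.63 and 16.9 CPM in AG and at 1.496, 1.84 and 1.87 CPM in CG. It fell by a log2 fold change of -3.04 (SE 0.38, edgeR adjusted p = 0.000673) and lies outside the list, since its AG 2 library was below 10 CPM and its CG 2 and CG 3 libraries above 1/8 of its AG mean. Of 10 genes outside the list with a photosystem II name, a set picked after the values were seen, 10 fell, beside 25.0% of all tested genes, with a median log2 fold change of -1.22, or -1.69 without CG 1. The median over all tested genes was -0.01. Genes 13028 and 48009 of this set missed the threshold when AG 1, AG 2, AG 3, CG 2 or CG 3 was left out, with edgeR adjusted p up to 0.104 and 0.0858. The sheet holds only genes that the study had called changed, so these counts say nothing of photosystem II genes it left out.

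Gene 16209 is named plasma membrane intrinsic protein 2;4, a family of aquaporins, the channels that let water cross membranes. It was at 10.6, 12.0 and 12.5 CPM in AG and at 0.374, 0.367 and 0.535 CPM in CG. Like gene 11180 it kept 4 counts in CG, here against 150 in AG, and its mean went from 11.7 ± 0.984 to 0.425 ± 0.0948 CPM, 27.5-fold lower. Gene 16695, listed under oxidation-reduction process with no name, was at 61.8, 62.5 and 58.4 CPM in AG and at 6.36, 3.30 and 1.34 CPM in CG, 16.6-fold lower or 26.2-fold without CG 1.

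The CG libraries did not lose the 78 transcripts evenly. Relative to the AG mean of each gene, the median level left was 8.72% in CG 1, 5.29% in CG 2 and 5.34% in CG 3. CG 1 was above both other CG libraries in 57 of the 78 genes, or 73.1%, where this held for 39.8% of all genes. The rule allowed CG 1 a higher level than CG 2 and CG 3, and 21 of the 78 genes entered with CG 1 above 1/8 of the AG mean. These 21 are among the 57 by construction, since the rule held CG 2 and CG 3 at or below 1/8. All genes also include those that rose, so nothing is read from the difference between the 73.1% and the 39.8%. CG 2 and CG 3 were close to each other, since in the 52 genes with 10 or more counts in each the higher exceeded the lower by a median factor of 1.12 and at most by 1.83, in gene 55105.

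The excess in CG 1 was uneven between genes. CG 1 stood at a median of 1.70 times the mean of CG 2 and CG 3, at 2 times or more in 34 genes and at 4 times or more in 14. The largest of these factors was 10.7, in gene 41244, and it was 5.66 in gene 67628 and 5.62 in gene 17756. Gene 36147 was next to the largest at 9.43, from 2.99 CPM in CG 1 against 0.367 and 0.267 CPM in CG 2 and CG 3, but these values rest on 10 counts. What sets CG 1 apart from the other cultures was not tested.

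In 19 genes CG 1 lay within 1.25 times of the mean of CG 2 and CG 3, among them genes 33330 and 62887. CG 1 was below both other libraries in 7 genes, which included gene 65415 and gene 65361. Gene 53738 showed this most clearly, with 330 (AG 1), 272 (AG 2) and 309 (AG 3) CPM at 0.04% CO2 and 11.2, 24.2 and 21.7 CPM in CG 1 to CG 3. The list therefore holds genes with a marked CG 1 excess beside genes with none.

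**Figure D3:**
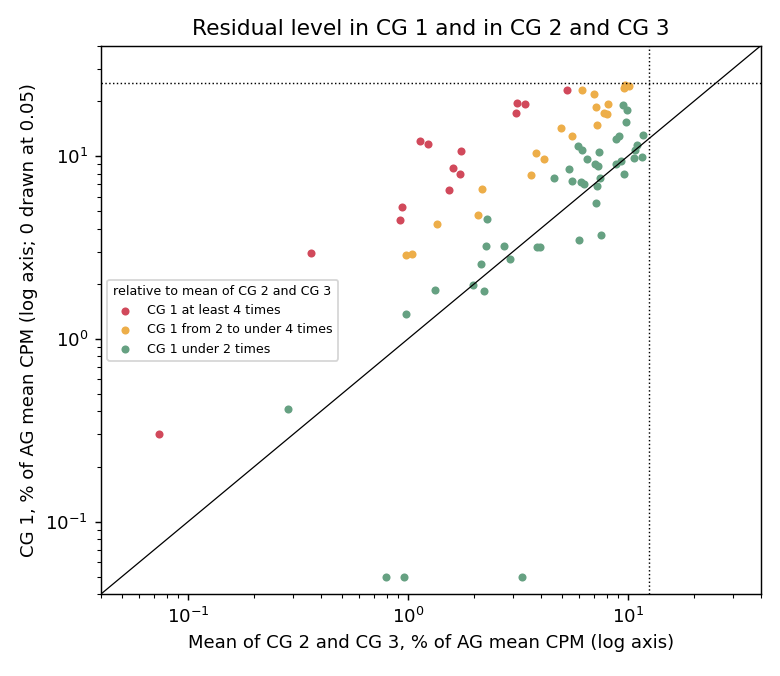
Level left in CG 1 against the mean level left in CG 2 and CG 3, both as percent of the AG mean of the gene on log axes, 1 point per gene, with 0 drawn at 0.05. Red points are the 14 genes with CG 1 at 4 times or more of the mean of the other CG libraries, the diagonal marks equal levels, and dotted lines mark 12.5% and 25%, the limits of the rule. For most genes the points lie above the diagonal.

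The AG cultures also differed for some of the genes. The coefficient of variation of CPM over AG 1 to AG 3 had a median of 9.96% over the 78 genes and 7.88% over the 7291 genes with 10 CPM or more in every AG library. The highest AG library exceeded the lowest by 1.5 times or more in 12 of the 78 genes, or 15.4%, and in 5.61% of those 7291 genes. AG 2 was the highest library in 8 of these 12 and AG 3 in 4. Gene 64096 varied most, with 19.2, 15.9 and 42.3 CPM in AG and 5.61, 1.47 and 2.14 CPM in CG, and only 3 of the 12 had an AG mean of 100 CPM or more.

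In the order of genes on the assembly, 7 pairs of the 78 genes, 14 genes in all, were direct neighbours, with no overlap of the 2 gene spans in any pair. All 78 genes and 9372 of the 9409 genes were matched to the annotation, and the 7 pairs made up 0.0782% of its 8946 pairs of neighbouring genes. The 78 genes were themselves 0.829% of the genes. A share of genes and a share of pairs are unlike measures and cannot be set against each other. How many pairs random placement would give was not worked out. Within 5 genes of each other lay 10 pairs with 17 of the genes. The list was otherwise scattered over 23 of 29 scaffolds, and no scaffold carried more than 9 of the genes.

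The pair of genes 30369 and 17756 differed in the size of their drops. Gene 30369 was at 837, 785 and 906 CPM in AG and at 193, 53.2 and 50.8 CPM in CG, 8.50-fold lower or 16.2-fold without CG 1, against the 42.0-fold drop of gene 17756. In both genes CG 1 was the highest CG library.

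Genes 56386 and 56387 moved in parallel. Gene 56386 was at 552, 515 and 600.04 CPM in AG and at 108, 18.4 and 16.6 CPM in CG, 11.7-fold lower. Gene 56387 was at 149, 144 and 165 CPM in AG and at 26.2, 3.30 and 6.15 CPM in CG, 12.9-fold lower. Both kept more than 4 times as much transcript in CG 1 as in CG 2 and CG 3 on average, and without CG 1 their folds were 31.8 and 32.3.

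Genes 36767 and 33330, both abundant, formed another pair, and neither showed an excess in CG 1. Gene 36767 was at 729.5, 593 and 672 CPM in AG and at 86.4, 77.1 and 79.1 CPM in CG, 8.22-fold lower, close to the 9.28-fold of gene 33330. The neighbours 66316 and 42290 were highest in AG 2 and in CG 1 alike, with folds of 32.8 and 13.3.

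Gene 41613 lay next to gene 62887 and differed from it in CG 1. It was at 353, 362 and 342 CPM in AG and at 37.4, 7.71 and 4.54 CPM in CG, 21.3-fold lower or 57.5-fold without CG 1, while gene 62887 was flat over the CG libraries. Gene 41610, at most 4 genes away from both, was at 399.7, 364 and 421 CPM in AG and at 31.4, 6.61 and 6.95 CPM in CG, with CG 1 again the highest CG library.

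The last pairs were lower in level. Gene 64096 lay next to gene 55184, which was at 47.2, 64.6 and 36.8 CPM in AG and at 4.49, 4.40 and 4.28 CPM in CG, 11.3-fold lower. Gene 55698 was at 41.1, 45.5 and 51.5 CPM in AG and at 3.37, 1.10 and 4.01 CPM in CG, 16.3-fold lower. Its neighbour 55699 was at 91.3, 80.0 and 85.3 CPM in AG and at 8.97, 6.24 and 6.42 CPM in CG, 11.9-fold lower. The AG library that was highest differed between the members of both pairs.

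**Figure D4:**
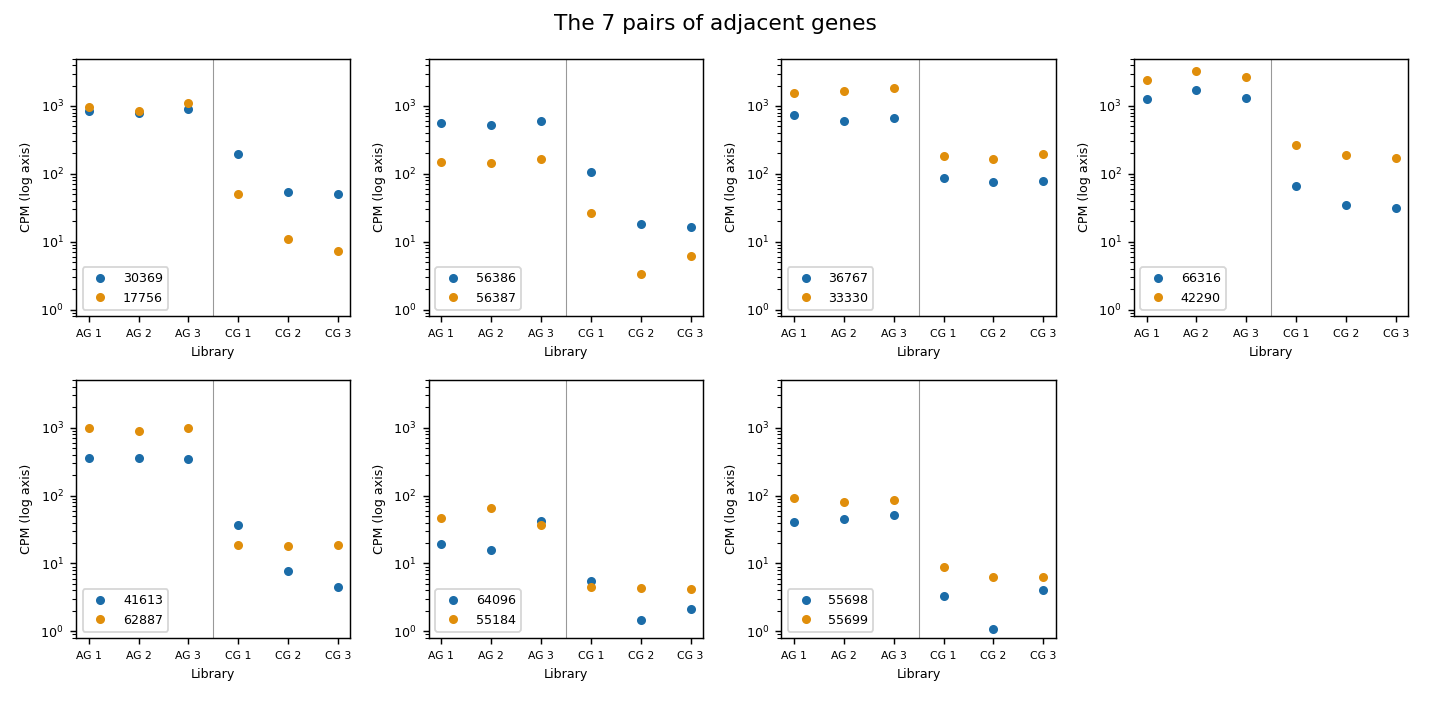
CPM (log axis) of the 7 pairs of neighbouring genes in AG 1 to AG 3 and CG 1 to CG 3, 1 panel per pair and 1 colour per gene, with the grey line between the groups. In the panels of 30369 with 17756 and of 56386 with 56387 both genes have their highest CG value in CG 1, and in the panel of 41613 with 62887 only gene 41613 does.

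The 78 genes had 136 other direct neighbours, 119 of which entered the test. Of these 40 fell (33.6%), 28 rose (23.5%) and 51 were not called, beside 25.0% and 27.3% of all tested genes, and their median log2 fold change was -0.20. Most neighbours thus did not share the drop. The neighbours named next were chosen after their values were seen.

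Gene 33912, next to gene 48431, came closest to the list. It was at 899.7, 783 and 882 CPM in AG and at 89.7, 107 and 84.2 CPM in CG and fell by a log2 fold change of -3.28 (SE 0.17, edgeR adjusted p = 2.36e-05). Gene 48431 itself was at 903, 889 and 1079 CPM in AG and at 89.7, 104 and 74.3 CPM in CG, 10.7-fold lower. Gene 44244, next to gene 58044, was at 2534, 2210.2 and 2731 CPM in AG and at 784, 189 and 123 CPM in CG and fell by -2.85 (SE 0.69, edgeR adjusted p = 0.0118), or -4.10 without CG 1. In these genes every CG library lay below every AG library.

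Other neighbours rose. Gene 17230, next to gene 56283, was at 11.1, 14.4 and 15.1 CPM in AG and at 235, 267 and 279 CPM in CG and rose by a log2 fold change of 4.18 (SE 0.16, edgeR adjusted p = 6.48e-06). Gene 65416, next to the P450 gene 65415, was at 1.01, 1.31 and 0.402 CPM in AG and at 7.10, 15.4 and 24.3 CPM in CG and rose by 4.07 (SE 0.60, edgeR adjusted p = 0.00147). Gene 55185, next to gene 55184, rose by 4.09 (SE 0.61, edgeR adjusted p = 0.00152). Direct neighbours of genes that were nearly lost could therefore be many times higher at 2% CO2.

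The span of only 1 neighbour overlapped one of the 78 genes, gene 60920 with gene 64895. It was low, at 6.18, 5.36 and 4.13 CPM in AG and 0.935, 1.28 and 0.267 CPM in CG, and fell by a log2 fold change of -2.74 (SE 0.47, edgeR adjusted p = 0.00263). Reads of both strands were counted together, so that reads of these 2 genes cannot be told apart where they overlap.

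The transcript models of the 78 genes had a median length of 1023 nt, against 1221 nt for all genes, and ran from 156 nt in gene 36767 to 5424 nt in gene 60294. Models under 300 nt were 4 of the 78 (5.13%) and 2.86% of all genes. Fractional counts, counted as such beyond a tolerance of 0.01, occurred in 11 of the 78 (14.1%) and in 12.8% of all genes, and they occurred in all 6 libraries only for genes 33330 and 47443. Gene 47443 was at 829, 856 and 1032 CPM in AG and at 61.9, 61.6 and 68.5 CPM in CG.

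Genes just inside and just outside the thresholds lay close together. At the floor of 10 CPM the lowest AG library was 10.1 CPM in gene 20662, 10.6 in gene 16209 and 12.9 in gene 60294 just inside, and 9.41 in gene 39261, 7.82 in gene 63637 and 6.24 in gene 37001 just outside. At the limit of 12.5% of the AG mean for CG 2 and CG 3, the higher of the pair stood at 11.9% in genes 36767 and 39976 and 11.7% in gene 33330 inside, and at 12.54% in gene 33912, 12.6% in gene 64873 and 12.7% in gene 38513 outside. At the limit of 25% for CG 1 it stood at 24.3% in gene 44673, 24.1% in gene 37789 and 23.5% in gene 58153 inside, and at 25.2% in gene 66322, 26.8% in gene 45154 and 26.9% in gene 62976 outside. The floor alone kept out 163 genes, the limit for CG 2 and CG 3 alone 97 and the limit for CG 1 alone 21. With a floor of 5 CPM the rule gave only 81 genes, so that few of the 163 reached 5 CPM in every AG library.

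Genes of processes known to answer to CO2 were looked up by name, in 7 lists over the 219 genes of the sheet. No name matched the lists for carbon uptake, photorespiration, the glyoxylate cycle with gluconeogenesis or light stress, and none of the 78 genes was in any list. Of 6 genes for the removal of reactive oxygen, 4 fell and 2 rose, beside 25.0% and 27.3% of all tested genes, with a median log2 fold change of -1.59, or -2.50 without CG 1. The sheet held only genes called changed by the study, so that a high share of calls was set in advance. When AG 1, AG 2, AG 3, CG 2 or CG 3 was left out, 3 of the 4 missed the threshold with log2 fold changes still negative, as for catalase 1 (gene 15220) with -2.22 over all libraries and -1.83 to -2.31 in these fits. The remaining gene, stromal ascorbate peroxidase (gene 20424), passed in each of them and had -2.88 (SE 0.27, edgeR adjusted p = 0.00021) over all libraries.

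Gene 20424 was at 17.0, 28.5 and 23.9 CPM in AG and at 3.55, 3.49 and 2.67 CPM in CG, a drop in all 3 CG libraries that stayed short of the limits of the rule. Gene 25301, catalase 2, which breaks down hydrogen peroxide, was at 2129, 2170.4 and 2228 CPM in AG and at 1587, 585 and 526 CPM in CG, again highest in CG 1. Of 2 genes for lipid breakdown 2 fell, and of 4 for phosphate and sulphur supply 3 fell and 1 rose. Beside these stand 25.0% and 27.3% of all tested genes, and here too the sheet set a high share of calls in advance. In the second list gene 13678 rose from 9.99 ± 1.69 to 180 ± 53.0 CPM, a log2 fold change of 4.08 (SE 0.27, edgeR adjusted p = 5.93e-05). The 3 that fell had -1.05 to -1.90. The number called lower was 1 for lipid breakdown and 2 for phosphate and sulphur supply when AG 1, AG 2, AG 3, CG 2 or CG 3 was left out.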

How the data were processed

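Poly(A) RNA of 3 AG and 3 CG cultures was sequenced as single-end reads, and the authors mapped clean reads of 36 nt with Bowtie (version not given in the sources used here) to the C-169 transcripts of Phytozome release 10 with 1 mismatch allowed, counting sense and antisense hits. The deposited table holds, for each library, estimated counts, part of them fractional although the methods describe reads matched to a single gene, and RPKM values that the authors normalized from them. Its 4 columns of the authors' own comparison (log2 fold change, direction, FDR and significance) and its group means were not used, and 0 per-sample columns were left out.

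CPM was computed from the column sums of the counts. For the count test, rounded counts were fitted by edgeR 4.0.16 under R 4.3.3 (TMM scaling with factors of 0.960 to 1.04, filterByExpr, robust quasi-likelihood fits, Benjamini-Hochberg adjustment over 8637 genes, threshold 0.05), a fit also tested on simulated data. Each p-value sets the difference between groups against the spread between 3 cultures per group. The edgeR fit draws the spread of each gene toward a trend over all genes. Alternatives were RLE scaling or library sums alone, no filter, limma 3.58.1 on log2 RPKM after adding 1 or 0.1, DESeq2 1.42.0, a replicate block, each library left out, and other thresholds of the rule. The remaining values used scipy 1.17.1, numpy 2.4.6 and pandas 2.3.3, and the figures matplotlib 3.10.9, under Python 3.11.15.

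The genes, lists and tests were chosen with earlier results of these data known. Genes named are the 10 highest in AG, the 10 with the largest drop, those with a function in the sheet of enriched terms, those at the thresholds, up to 4 per list and neighbouring pairs, with others marked as chosen after their values were seen or given as examples of a count. Lists had been planned on product names of the assembly annotation, which the table used here does not hold, so the same patterns were applied to the names in that sheet, which covers 219 genes that the authors had called. Gene order came from the RefSeq annotation, whose assembly the files do not name, so no coordinates or sequences are given.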

Additional observations from a re-analysis of the deposited data

How the results depend on the processing

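The number of genes that met the rule was 127 with a limit of 1/4 in CG 2 and CG 3 and 39 with a limit of 1/16, and the median log2 ratio was then -3.21 and -5.07. A limit of 1/8 in CG 1 gave a median of -4.41 over 57 genes. With each library left out in turn the rule gave 78 to 99 genes, and the median ran from -4.05 to -3.55. All 78 genes were called lower in CG in each of the 14 fits run, which use the contrast that chose them.

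Of the neighbours, 30 to 48 fell and 22 to 31 rose with 1 library left out. The genes for removal of reactive oxygen that fell numbered 1 to 4 and those for lipid breakdown 1 to 2. Whether equal replicate numbers pair the cultures is not stated by the labels. Across genes, the deviations from the group means correlated at -0.0367 for AG 1 and CG 1, 0.0349 for AG 2 and CG 2 and -0.0480 for AG 3 and CG 3. They thus showed no shared shift by number, which does not settle how the cultures were grown. With the replicate block 1973 genes fell and 2098 rose over all genes, and 38 and 25 among the neighbours. Genes of the lists and those with photosystem II or P450 names kept their direction in every alternative run, and 7 of them (13028, 15220, 23349, 25301, 48009, 54617 and 66324) missed the threshold with AG 1, AG 2, AG 3, CG 2 or CG 3 left out. Of the 68 neighbours called, 18 missed it in at least 1 alternative. Folds of genes with few counts in CG are limited by depth, and the cause of the changes with the thresholds is the rule itself.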
